A study of Mus musculus with 21 samples.

Results

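The genes that encode the proteins of the cytosolic ribosome were followed through late fetal and early postnatal development of mouse male germ cells with and without Tex15. They were taken as every gene row whose symbol begins with Rpl or Rps and a number, or is Rplp0, Rplp1, Rplp2 or Rpsa, without names marked -ps and without the Rps6k kinases. This gave 89 of 24495 gene rows. Among them, 46 encode proteins of the large subunit and 31 proteins of the small subunit, and 12 are paralogues, retrogenes or, in the case of Rps19bp1, a binding partner of Rps19 that is not itself a ribosomal protein. The 6 symbols marked -ps and the 10 Rps6k genes were left out.

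Germ cells were sorted by the green fluorescence of an Oct4-GFP reporter from male embryos or pups born to Tex15 heterozygous parents on a mixed strain background, so all groups carry the reporter. The groups were Tex15 KO (Tex15-/-) and Tex15 HT (Tex15+/-) cells at embryonic day 16.5 (E16.5), embryonic day 18.5 (E18.5) and postnatal day 2.5 (D2.5), and Tex15 WT cells at D2.5 only, with 3 biological replicates in each of the 7 groups. Neither the allele nor the number of animals behind a library is given in the sources used here. TEX15 is a germ cell protein that acts with the piRNA pathway in silencing transposons by DNA methylation in the fetal male germ line.

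The cytosolic ribosome is built from ribosomal RNAs and one copy each of most ribosomal proteins, with the acidic P-stalk proteins Rplp1 and Rplp2 as the known exception. Its protein genes are usually transcribed together at high rates, and their mRNAs open with a run of pyrimidines, the 5′ terminal oligopyrimidine (TOP) motif, through which mTOR signalling sets their translation. Several ribosomal proteins have retrocopies or paralogues that are prominent in male germ cells, among them the autosomal Rpl10l and Rpl39l, whose parents Rpl10 and Rpl39 lie on the X chromosome.

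The start sites of members that moved in opposite directions, of the most abundant member and of 2 parent and paralogue pairs are shown first, chosen after the values were seen, because the TOP motif lies at the start of the transcript. Each line gives 40 bases of RefSeq promoter sequence on the GRCm38.p6 build, from 20 bases before to 20 bases after the annotated start, 5′ to 3′ on the gene's strand. Capitals mark the longest run of C and T that touches the 10 bases on either side of the start.
Rplp2 (chr7:141447631-141447670, plus strand): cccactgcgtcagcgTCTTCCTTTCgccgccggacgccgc
Rpl18 (chr7:45718051-45718090, plus strand): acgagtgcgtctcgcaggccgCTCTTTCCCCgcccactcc
Rps10 (chr17:27635225-27635264, minus strand): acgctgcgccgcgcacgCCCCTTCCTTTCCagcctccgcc
Rpl15 (chr14:18270967-18271006, minus strand): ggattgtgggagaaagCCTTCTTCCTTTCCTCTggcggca
Rpl4 (chr9:64173367-64173406, plus strand): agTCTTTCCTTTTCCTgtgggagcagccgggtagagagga
Rpl39l (chr16:10170208-10170247, plus strand): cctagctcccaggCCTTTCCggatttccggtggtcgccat
Rpl39 (chrX:37085203-37085242, minus strand): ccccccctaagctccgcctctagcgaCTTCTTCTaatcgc
Rpl10l (chr12:66284382-66284421, minus strand): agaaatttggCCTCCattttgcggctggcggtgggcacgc
Rpl10 (chrX:74270796-74270835, plus strand): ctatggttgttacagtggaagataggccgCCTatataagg

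A run of at least 8 pyrimidines lay within or touched the 10 bases on either side of the annotated start in 30 of 68 members with a promoter entry (44.1%), against 4259 of 27025 genes (15.8%). Rps10 and Rpl15 both had such a run, of 13 bases in Rps10 and 17 bases in Rpl15, and they moved in opposite directions after birth. In Rpl10 and Rpl10l the longest runs touching this window had 3 and 5 bases, and in Rpl39l it had 7 bases. The heptamer CCGGAAG, the core bound by ETS family factors, was present on either strand within 250 bases before to 50 bases after the start in 26 members (38.2%), against 9.93% of all genes. The letters AAGATGG of the YY1 type stood in 14.7% of the members and 7.28% of all genes, the E-box CACGTG in 8.82% and 8.09%, and TATAAA in 11.8% and 15.7%. Both Rps10 and Rpl15 carry the heptamer CCGGAAG upstream of the start, marked by capitals in the 150 bases given on these lines. A match is a description of the letters and no evidence of binding.
Rps10 (chr17:27635225-27635374, minus strand): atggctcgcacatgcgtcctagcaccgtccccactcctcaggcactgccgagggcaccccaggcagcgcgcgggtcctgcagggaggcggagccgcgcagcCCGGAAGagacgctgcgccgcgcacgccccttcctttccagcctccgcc
Rpl15 (chr14:18270967-18271116, minus strand): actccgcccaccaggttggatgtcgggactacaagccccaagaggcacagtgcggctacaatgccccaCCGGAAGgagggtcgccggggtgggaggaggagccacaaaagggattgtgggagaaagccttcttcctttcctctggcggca

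Summed over the 89 genes, ribosomal protein transcripts made up 1.92%, 2.26% and 2.02% of the gene counts in the KO libraries and 2.39%, 2.20% and 1.92% in the HT libraries at E16.5. At E18.5 the shares were 1.56%, 1.78% and 1.45% in KO and 1.30%, 1.82% and 1.83% in HT. At D2.5 they were 0.320%, 0.346% and 0.293% in KO, 0.327%, 0.2505% and 0.321% in HT, and 0.242%, 0.363% and 0.289% in WT. KO overlapped HT at each age, whereas no library at D2.5 came near the embryonic range. The group means at D2.5 were 0.320% ± 0.0267 in KO, 0.299% ± 0.0424 in HT and 0.298% ± 0.0612 in WT (SD, n = 3 each), and at E18.5 1.60% ± 0.169 in KO and 1.65% ± 0.298 in HT. In sorted bulk RNA, fewer cells of a type and less RNA per cell cannot be told apart.

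**Figure D1:**
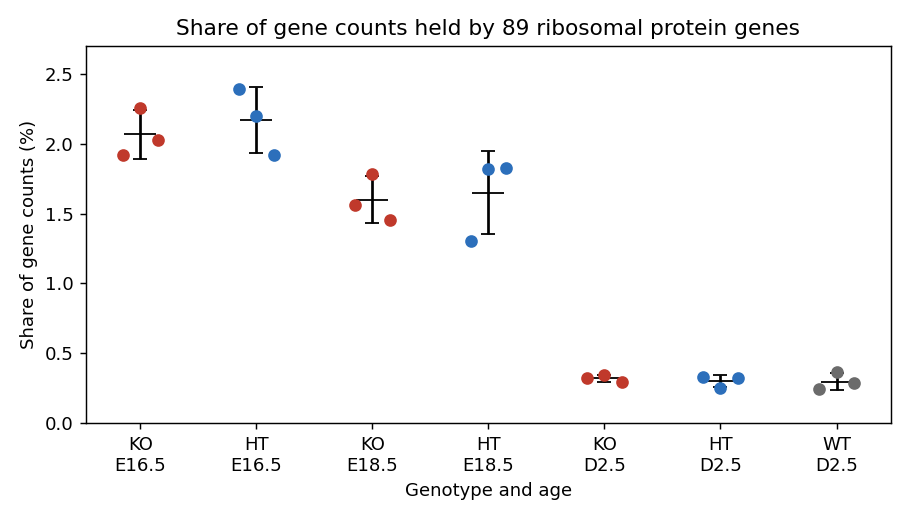
Share of each library's gene counts held by the 89 ribosomal protein genes (vertical axis, %), by genotype and age (horizontal axis). Points are libraries (red KO, blue HT, grey WT), and bars give the mean and SD of 3 libraries. The D2.5 libraries lie between 0.242% and 0.363%, all below the lowest E18.5 library at 1.30%.

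The libraries held 6063632 to 11884109 gene counts, and repeat names took 41.9% to 69.4% of all counts. Genes at 0 numbered 2359 to 2687 per library at E18.5 but 7227 to 8279 at D2.5. The targeted gene itself had 2.93 to 4.16 CPM (counts scaled to a total of 1000000 gene counts) in KO and 774 to 1149 CPM in HT at E16.5, 3.52 to 3.87 and 916 to 1031 CPM at E18.5, and 14.2 to 20.1 CPM in KO, 1488 to 1848 CPM in HT and 3106 to 3823 CPM in WT at D2.5. The germ cell markers Ddx4 and Dazl averaged at least 436 CPM in every group, while the haemoglobin gene Hba-a1 was at 0 in all of them. Each age has its own deposited table, so age and table cannot be told apart.

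Levels per kilobase of exon differed widely among members. Averaged over the 21 libraries, Rpl4 of the large subunit was highest at 1512 CPM per kb, and Rpl32 at 1243, Rplp1 at 759 and Rpl8 at 542 CPM per kb were also among the 5 highest. At the other end, the retrogene Rps27rt had no count in any library, Rpl26 had 0.0666 CPM per kb with 15 libraries at 0, Rps27 had 0.552 with 8 at 0, Rpl30 had 1.66, and Rpl5 had 3.11 CPM per kb. Processed pseudogenes of ribosomal proteins are many in the mouse genome, and how reads that match several places were counted is not given in the sources used here. In a comparison of 31-base words with the transcripts of other annotated genes, a median of 55.7% of a member's words (range 0 to 99.02%, 87 members) also occurred elsewhere. This share was 32.2% for Rpl4, 9.99% for Rpl8, 76.2% for Rpl26 and 94.8% for Rpl5. Across 86 members it had a Spearman correlation of -0.15 with the log2 level per kb, given as a description over genes that share libraries. The relation was not even. The median level was 58.2 CPM per kb at a share up to 25% (13 members) and 109 up to 50% (21 members). It was 124 CPM per kb up to 75% (23 members) and 27.9 above 75% (30 members). Levels of single members are uncertain where copies exist. Reads of the snoRNA genes inside Rpl4, Rpl3, Rpl5 and Rpl21, and of Cand2, which overlaps Rpl32, were not separated from them.

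No ribosomal protein gene passed the test between KO and HT cells at any age. With edgeR's quasi-likelihood test and Benjamini-Hochberg adjustment over all genes, 0 of 86 members passed at E16.5, where 0.00618% of all tested genes did, 0 of 86 at E18.5 against 2.14% of all genes, and 0 of 83 at D2.5 against 0.153%. At an unadjusted p under 0.05 there were 0 members at E16.5 (1.17% of all genes), 1 at E18.5 (8.12%) and 2 at D2.5 (7.21%). DESeq2 and limma-voom also called 0 members at each age. The comparisons of KO with WT at D2.5 (0 of 83 members, 0.216% of all genes) and of HT with WT at D2.5 (0 of 83, 0.00696%) made no call either, with 2 members (7.77% of all genes) and 0 members (3.4%) at an unadjusted p under 0.05, and DESeq2 and limma-voom called 0 in both.

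The size of difference that these data can bound varied with age. The 95% interval of the log2 fold change lay within 1 of 0 in 56 of 86 members at E16.5, 80 of 86 at E18.5 and 15 of 83 at D2.5. For Rpl4, the most abundant member, KO over HT was 0.01 (95% interval -0.29 to 0.32) at E16.5, 0.05 (-0.25 to 0.36) at E18.5 and 0.02 (-0.34 to 0.39) at D2.5. The P-stalk gene Rplp1 was likewise measured at 0.11 (-0.36 to 0.58) at E18.5, but at D2.5 its interval reached from -1.41 to 0.68.

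**Figure D2:**
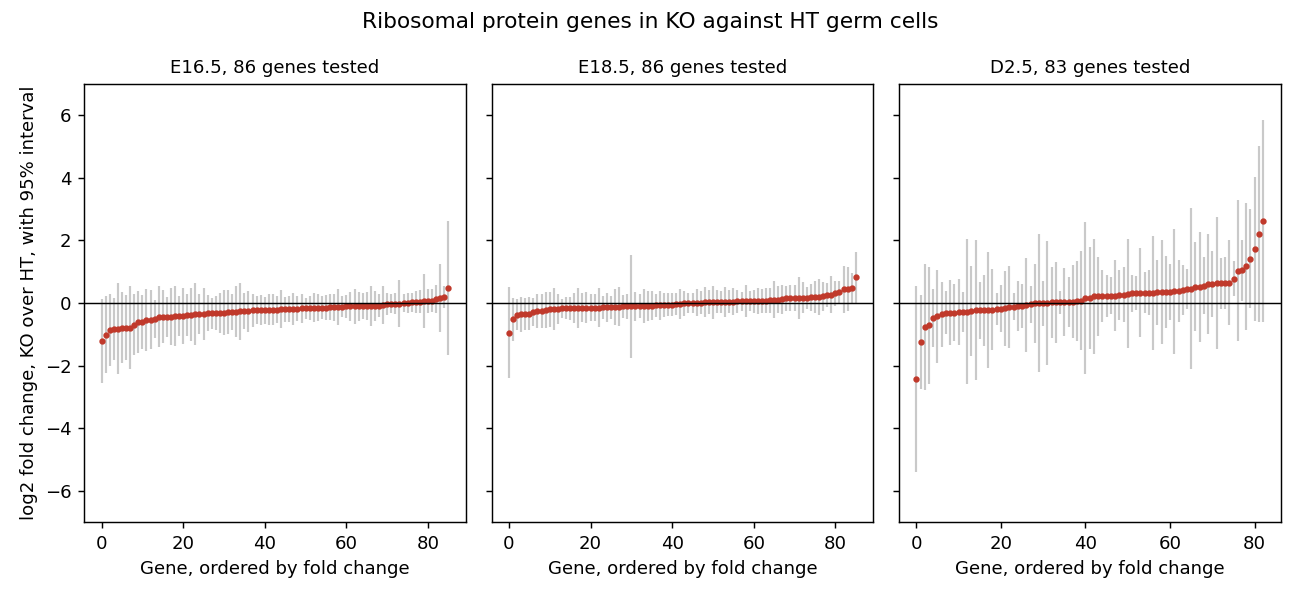
log2 fold change of KO over HT with its 95% interval (vertical axis) for each member tested, ordered by fold change (horizontal axis), at 3 ages. Medians lie at -0.21, -0.02 and 0.16, and the intervals are widest at D2.5.

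Taken over the members tested, the median log2 fold change of KO over HT was -0.21 at E16.5, where the median of all genes was -0.01 and 75 of 86 members lay below 0. Without HT replicate 1 of that age the members' median was -0.01. It was -0.35 without HT replicate 3, with 15 members at an unadjusted p under 0.05, and -0.32 without KO replicate 2, with none, and no member was called in either. HT replicate 1 was highest of the 3 HT libraries for many members of moderate level, for instance Rpl22 with 392.1 CPM against 183 and 131 CPM. The members' median was -0.02 at E18.5, and ran from -0.18 without HT replicate 1 to 0.08 without HT replicate 3. At D2.5 it was 0.16, and ran from 0.08 without HT replicate 2 to 0.22 without HT replicate 1. Few members had KO and HT libraries that did not overlap. At E16.5 none was higher in every KO library (3.37% of all genes) and 2 were lower, Rps27a and Rpl30 (3.34%). At E18.5 Rpl17 was higher (6.85%) and Rpl31 and Rpl12 were lower (7.15%). At D2.5 Rps21, Rps27l, Rps7 and Rpl7l1 were higher (4.82% of the members, 5.32% of all genes) and none was lower (6.68%).

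The member closest to a call was Rpl15, a large subunit protein, at D2.5. It had 399, 287 and 428 CPM in KO cells, 246, 134 and 293 CPM in HT cells and 169, 361 and 314 CPM in WT cells. The lowest KO library lay below the highest HT library, and WT overlapped both groups. The log2 fold change of KO over HT was 0.77 ± 0.27 (SE), with an adjusted p of 0.432 in edgeR, and 0.0235 when genes of low count were not filtered out, the only member called there. Next came Rpl10l, with 40.7, 26.4 and 15 CPM in KO, 18.7, 11.4 and 11.6 CPM in HT, and 18.6, 18.4 and 19.1 CPM in WT at D2.5. Its log2 fold change of KO over HT was 1.04 ± 0.47 (SE), with an adjusted p of 0.655 in edgeR.

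Rpl3, a large subunit protein, was unsteady among replicates. It had 1.88, 2.04 and 17.4 CPM in KO and 3.43, 18.6 and 19.5 CPM in HT at E18.5, and 5.72, 106 and 30.9 CPM in the KO libraries at E16.5. With KO replicate 3 left out at E18.5 it was called lower in KO (log2 fold change -2.77, adjusted p 0.0341 in edgeR), and with it the adjusted p was 0.852. Of its 31-base words, 87.6% also occurred in other genes. Rpl21 showed jumps of the same kind, with 8.33, 9.35 and 69.4 CPM in KO and 9.27, 74.0 and 9.43 CPM in HT at E18.5.

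No member passed the test of a difference in the KO effect between ages. In a single fit of the 18 KO and HT libraries, 0 of 86 members passed for the difference of the KO effect between E18.5 and E16.5 (0% of all genes) or between D2.5 and E18.5 (0.0531% of all genes), with 1 member (0.829% of all genes) and 4 members (10.4%) at an unadjusted p under 0.05, and DESeq2 and limma-voom made no member call. The other gene groups of the translation machinery made no call between KO and HT either. None of 78, 77 and 75 tested mitochondrial ribosomal protein genes passed at the 3 ages, and none of 64 ribosome assembly factors, 36 elongation and initiation factors, 24 regulators such as Mtor and Myc, or 21 to 22 other TOP mRNA genes. At E18.5, where 2.14% of all genes were called, some cell type markers were called too. Of 7 tested macrophage and blood markers 2, Mrc1 and Adgre1, were higher in KO, and 3 had a fold change below 0. Mrc1 and Adgre1 had means of 61.5 and 10.1 CPM in KO against 17.9 and 3.86 CPM in HT. The summed list, Mrc1 included, had 86.7 to 112.8 CPM in KO and 48.0 to 52.3 CPM in HT. Of 10 endothelial markers 1, Tek, was higher there, at 56.4 CPM in KO and 31.7 CPM in HT. The median log2 fold change of these 10 was -0.02, with 6 below 0. Of 12 germ cell markers 1, Pou5f1, the Oct4 gene itself, was lower, at 67.8 CPM in KO and 122 CPM in HT. At D2.5 the summed stromal markers were 278 to 735 CPM in KO and 205 to 319 CPM in HT, and the Sertoli markers 114 to 298 CPM in KO and 134 to 145 CPM in HT, with 0 of 11 stromal and 0 of 9 Sertoli markers called and median log2 fold changes of 0.82 and 0.83. Their part in the values above was not tested.

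Between E16.5 and E18.5 ribosomal protein genes declined moderately. In KO cells 10 of 86 members were lower at E18.5 and none higher (11.6%, against 2.9% of all genes lower and 1.65% higher), and in HT cells 38 were lower and none higher (44.2%, against 8.39% of all genes lower and 4.81% higher). The members' median log2 fold change was -0.55 in KO and -0.81 in HT, while that of all genes was 0.14 in KO and 0.11 in HT. All 10 genes called in KO were among the 38 called in HT, of which they made up 26.3%. Whether the genotypes differed in this step was asked by the test of the KO effect between ages given above, which 0 members passed.

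The 10 members lower in both genotypes were Rpl41, Rps4l, Rps9, Rps26, Rpl39l, Rps4x, Rps3, Rpl23, Rps10 and Rpl14. Rpl41, a very short peptide of the large subunit, had 119, 176 and 123 CPM at E18.5 against 404, 528 and 301 CPM at E16.5 in KO cells. In HT cells it had 81.6, 139 and 253 CPM at E18.5 against 709, 548 and 315 CPM at E16.5. The ages did not overlap in either genotype, and the log2 fold changes were -1.79 ± 0.36 in KO (adjusted p 0.012, edgeR) and -2.12 ± 0.36 in HT (SE, adjusted p 0.00254). Rps4x, the X-linked S4 protein, had 260, 387 and 326 CPM at E18.5 against 661, 751 and 579 CPM at E16.5 in KO, and 234, 381 and 465 against 800, 685 and 500 CPM in HT. Its paralogue Rps4l fell alongside it, by 1.72 ± 0.38 in KO and 1.91 ± 0.38 in HT on the log2 scale (SE). Other large HT falls were those of Rpl39 (-2.23), Rpl36a (-2.08) and Rpl13 (-1.79), with adjusted p of 0.0104, 0.0291 and 0.00574 in edgeR. In KO these genes had -1.57, -1.68 and -1.10, which were not called.

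The number of calls moved with single libraries and with the scaling. In KO it was 0 without E16.5 replicate 1, E16.5 replicate 2 or E18.5 replicate 1, 3 without E18.5 replicate 3 and 18 without E16.5 replicate 3. In HT it was 8 without E16.5 replicate 1, 10 without E18.5 replicate 1, 23 without E16.5 replicate 2 and 24 without E18.5 replicate 2. With no scaling factors 5 members were called in KO and 13 in HT, and the median of all genes moved to 0.36 in KO and 0.43 in HT, with a members' median minus that of all genes of -0.69 and -0.90. With TMM scaling, 6 of 12 germ cell markers were lower in KO over this step and 7 of 12 in HT, against 2.9% and 8.39% of all genes. Their summed levels were 4546 to 5454 CPM at E18.5 against 6514 to 7616 CPM at E16.5 in KO and 4858 to 5617 against 6763 to 8010 CPM in HT. Stromal markers moved the other way, 4 of 12 being higher in each genotype, against 1.65% of all genes in KO and 4.81% in HT. They had 269 to 304 CPM at E18.5 against 85.0 to 151 CPM at E16.5 in KO and 242 to 316 against 29.5 to 141 CPM in HT. Their part in the decline was not tested.

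After birth most members were lower again. At D2.5 compared with E18.5, 56 of 86 members were lower in KO cells and 2 higher (65.1% lower, against 34.2% of all genes lower and 21.1% higher), and 61 were lower in HT cells and 2 higher (70.9% lower, against 33.4% of all genes lower and 21.4% higher). Of the lower genes 54 were shared, 96.4% of the KO calls and 88.5% of the HT calls, and the 2 higher genes were the same in both. The members' median log2 fold change was -1.94 in KO and -1.99 in HT, and that of all genes -0.54 in KO and -0.51 in HT. Across the 86 members the KO and HT changes had a Pearson correlation of 0.917 and a Spearman correlation of 0.902, described over genes measured in the same libraries. By class, 28 of 45 large subunit genes, 22 of 30 small subunit genes and 6 of 11 paralogues and others were lower in KO, and 30 of 45, 23 of 30 and 8 of 11 in HT.

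**Figure D3:**
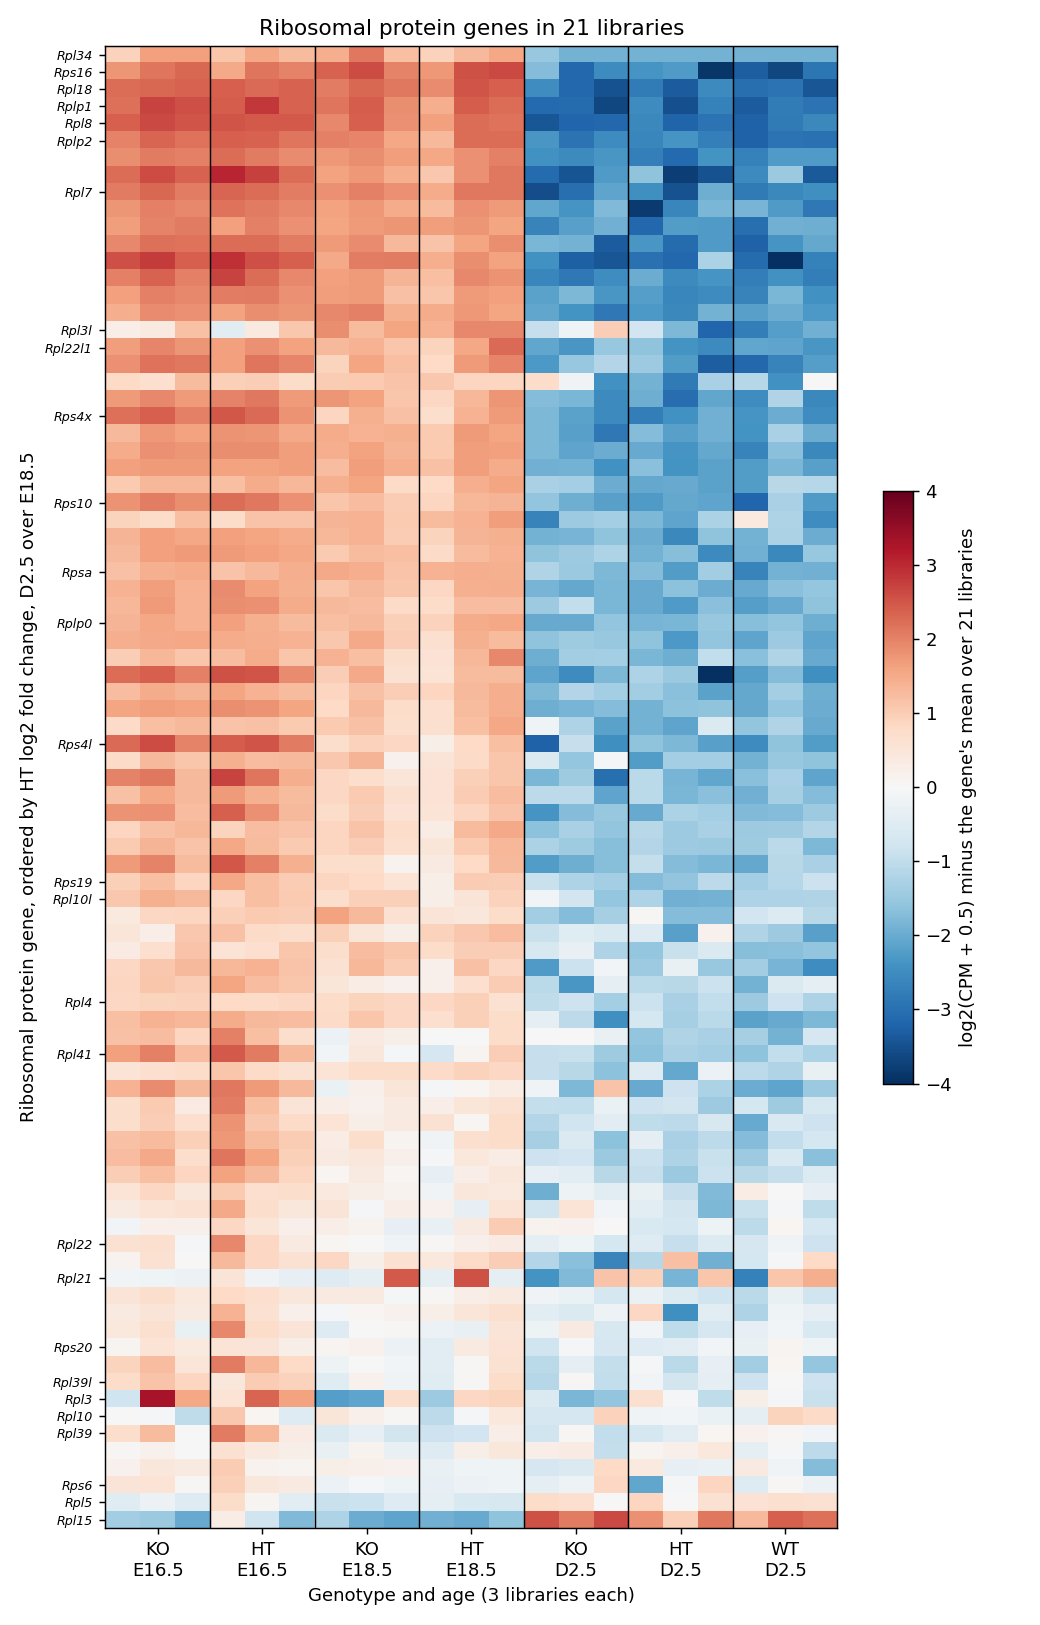
log2(CPM + 0.5) of each of the 86 tested members (rows, ordered by HT fold change of D2.5 over E18.5, some of them labelled) minus its mean, in the 21 libraries (columns, by genotype and age). The D2.5 columns are blue for most rows, and Rpl15, in the bottom row, is red in them.

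The P-stalk genes were among the largest falls. Rplp1 had 14.5, 14.8 and 9.73 CPM at D2.5 against 571, 683 and 464 CPM at E18.5 in KO cells. In HT cells it had 22.2, 10.7 and 19.1 CPM at D2.5 against 352, 688 and 599 CPM at E18.5, and WT cells had 12.4, 18.1 and 16.0 CPM at D2.5. The ages did not overlap in either genotype, and the log2 fold changes were -4.95 ± 0.33 in KO (adjusted p 1.13e-09, edgeR) and -4.48 ± 0.32 in HT (SE, adjusted p 2.02e-09). Rplp2 fell by 3.98 in KO and 4.10 in HT on the log2 scale. Rplp0, the stalk protein that anchors both, fell by 2.53 in KO and 2.58 in HT.

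Large subunit members Rpl18 and Rpl8 fell by 4.71 and 4.86 in KO and by 4.75 and 4.47 in HT on the log2 scale. Rpl8 had 14.6, 17.4 and 18 CPM at D2.5 against 613, 855 and 572 CPM at E18.5 in KO, and 26.3, 16.9 and 20.2 against 505, 759 and 727 CPM in HT. Rps16 of the small subunit had 3.77, 1.12 and 1.98 CPM at D2.5 against 72.5, 85.7 and 56.2 CPM at E18.5 in KO and 2.29, 2.44 and 0.469 against 46.8, 83.5 and 88.2 CPM in HT. Rps10, whose start is shown above, had 11, 8.36 and 7.09 CPM against 73.6, 80.7 and 68.9 CPM in KO and 6.58, 7.85 and 7.51 against 61.1, 86.2 and 87.8 CPM in HT. Rpl34 had no count in any HT library at D2.5, against a mean of 3.98 CPM at E18.5, which makes it at least 27.0-fold lower with 3 counts over the group as the floor. With Rpl34 at this bound the members' median in HT was the same, -1.99. Rpsa, the laminin-binding small subunit protein, fell by 2.35 in KO and 2.68 in HT, and Rps19, mutated in Diamond-Blackfan anaemia in humans, by 1.43 and 1.77. With the length trend described below removed, the change of Rps19 turned to 0.77 in KO and 0.43 in HT.

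Not every member fell. Rps20 of the small subunit had 163, 269 and 179 CPM at D2.5 against 310, 325 and 241 CPM at E18.5 in KO, and 200, 215 and 268 against 213, 364 and 431 CPM in HT. Its log2 fold changes were -0.03 (95% interval -0.53 to 0.47) in KO and -0.06 (-0.56 to 0.43) in HT after TMM scaling. Rps6, the substrate of the S6 kinases, had 0.82 (-0.23 to 1.86) in KO and 0.74 (-0.31 to 1.79) in HT, and Rpl11, a binding partner of Mdm2, had 0.17 in KO and -0.70 in HT, none of them called. Rpl4 had the highest level per kb of all members at D2.5, with means of 602 CPM per kb in KO, 610 in HT and 561 in WT. It had 937, 1087 and 751 CPM in KO, 1065, 772 and 977 CPM in HT and 702, 1073 and 812 CPM in WT, although it fell by 1.36 ± 0.18 in KO and 1.33 ± 0.18 in HT (SE, log2), a change that turned to 0.22 and 0.24 with the length trend removed.

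Rpl15 ran the other way. It had 399, 287 and 428 CPM at D2.5 against 28.9, 16.9 and 15.5 CPM at E18.5 in KO cells. In HT cells it had 246, 134 and 293 CPM at D2.5 against 17.8, 16.5 and 22.1 CPM at E18.5. Every D2.5 library, WT included, was above every embryonic library, the highest of which was HT E16.5 replicate 1 at 83.5 CPM. The log2 fold change was 4.68 ± 0.48 in KO (adjusted p 1.50e-07, edgeR) and 4.08 ± 0.47 in HT (SE, adjusted p 6.01e-07). Rpl5, which carries the 5S RNA into the ribosome together with Rpl11, was the other member called higher, with 9.999, 9.48 and 5.94 CPM at D2.5 against 2.93, 3.01 and 3.89 CPM at E18.5 in KO and 11, 5.82 and 9.07 against 4.44, 3.67 and 3.52 CPM in HT. Its log2 fold changes were 1.88 ± 0.51 in KO and 1.65 ± 0.51 in HT (SE). Members with a pyrimidine run of at least 8 bases in or touching the window around the start had medians of -1.93 in KO and -2.01 in HT (29 members), and those without one -1.52 in KO and -1.83 in HT (36 members).

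**Figure D4:**
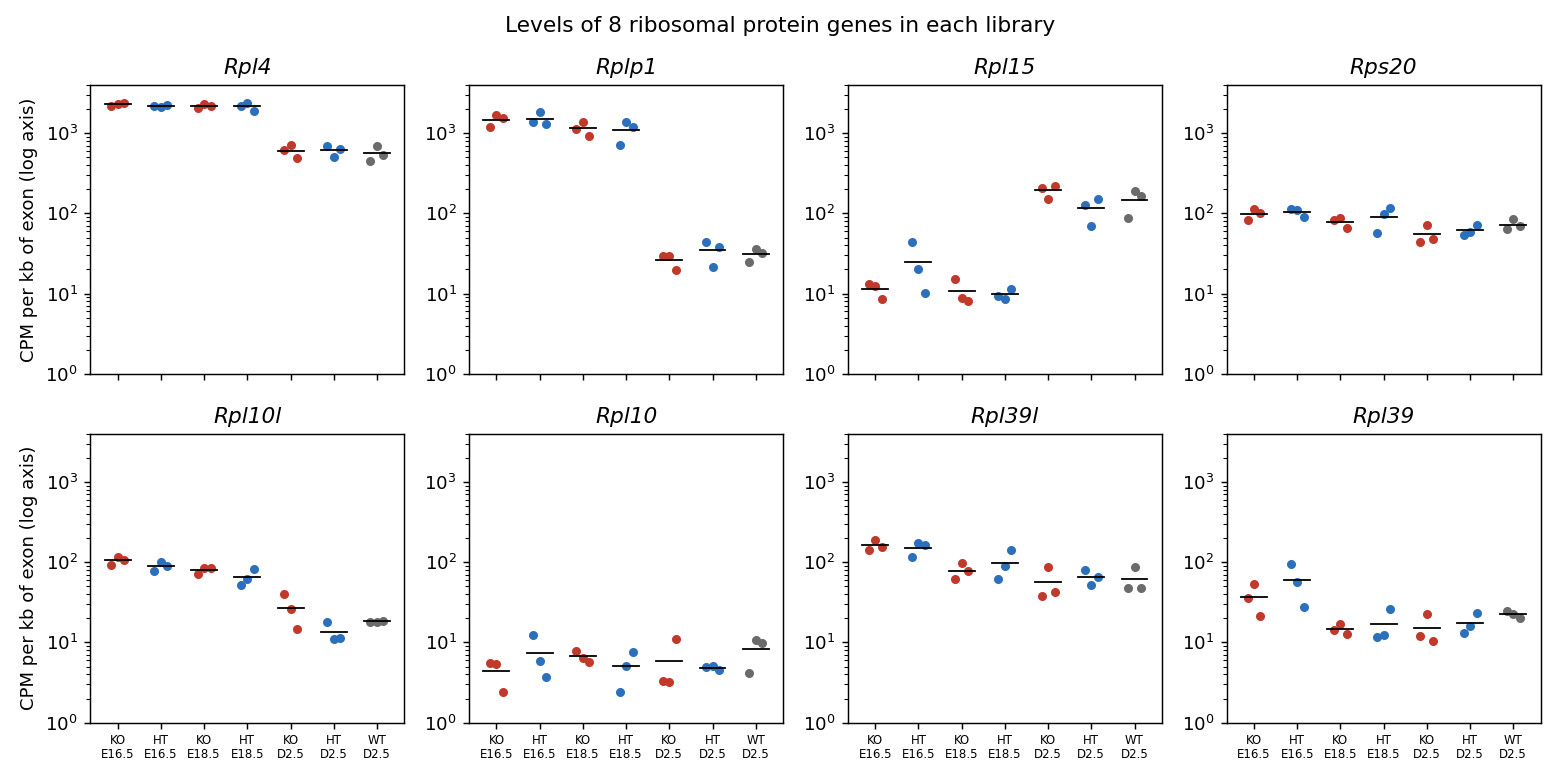
CPM per kb of exon (vertical log axis) in each library for 8 members, by genotype and age (horizontal axis). Points are libraries (red KO, blue HT, grey WT), and lines are means of 3. Rpl15 is higher at D2.5, Rplp1 and Rpl4 are lower there, and Rpl10l and Rpl39l exceed their parents at each age.

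Parents and paralogues differed in level and in course. Rpl10l, the autosomal retrogene, averaged 57.0 CPM per kb over the 21 libraries and its X-linked parent Rpl10 6.07 CPM per kb. For Rpl10l 23.4% of the 31-base words, and for Rpl10 92.3%, occurred in other genes. Rpl39l averaged 96.2 CPM per kb and Rpl39 26.1 CPM per kb, with 2.19% and 23.7% of words shared. Rpl10l was lower at D2.5 than at E18.5, by 1.05 ± 0.31 in KO and 1.75 ± 0.32 in HT (SE, log2), a direction that turned with the length trend described below removed. Rpl39l had 0.01 (95% interval -0.63 to 0.66) in KO and -0.06 (-0.70 to 0.59) in HT over the same step, after it had fallen by 1.27 in KO and 0.96 in HT between E16.5 and E18.5. Rpl22l1 fell by 2.76 in KO and 3.34 in HT after birth, while its parent Rpl22 had 0.13 in KO and -0.35 in HT, not called. Rpl7 fell by 4.24 in KO and 3.99 in HT, and Rpl7l1 had 0.27 in KO, not called, and -1.24 in HT, which was called (adjusted p 0.0187, edgeR). The muscle paralogue Rpl3l had 1.88, 3.54 and 8.41 CPM at D2.5 against 15.96, 10.3 and 13.03 CPM at E18.5 in KO, and 2.14, 0.812 and 0 against 11.3, 16.8 and 16.8 CPM in HT. Its log2 fold change was -1.04 in KO, not called, and -3.39 ± 0.78 in HT (SE, adjusted p 0.00119, edgeR). Rps27 stayed under 1 CPM in every library, and Rps27l had 35.0 to 39.9 CPM in KO, 21.6 to 31.1 CPM in HT and 17 to 37.4 CPM in WT at D2.5.

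The postnatal fall went along with transcript length, though not evenly, and members are short, with a median exon length of 835 bases. Members of up to 600 bases had medians of -1.16 in KO and -1.57 in HT, against -0.88 in both for other genes. Members longer than 600 and up to 1000 bases had median log2 fold changes of -2.17 in KO and -2.43 in HT, against -1.62 in both for other genes of that length. Other genes above 4000 bases had medians of 0.05 in KO and 0.14 in HT, while Rps15a, the only member of that length, had -1.93 and -1.89. With a trend on length, estimated from the other genes, removed from each library, 25 members were higher and 25 lower in KO (29.1% each, against 33.2% of all genes higher and 20.6% lower), and 19 higher and 30 lower in HT (22.1% and 34.9%, against 33% of all genes higher and 20% lower). Of the members called without the correction, 14 of 58 in KO and 16 of 63 in HT then had a fold change of the opposite sign. The members' median minus that of all genes was then -0.20 in KO and -0.47 in HT, and without the correction -1.40 and -1.48. Between E16.5 and E18.5 the same correction gave 32 members lower in KO (37.2%, against 6.64% of all genes) and 66 in HT (76.7%, against 18.2%). The part of length in the postnatal fall was not tested beyond this correction.

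**Figure D5:**
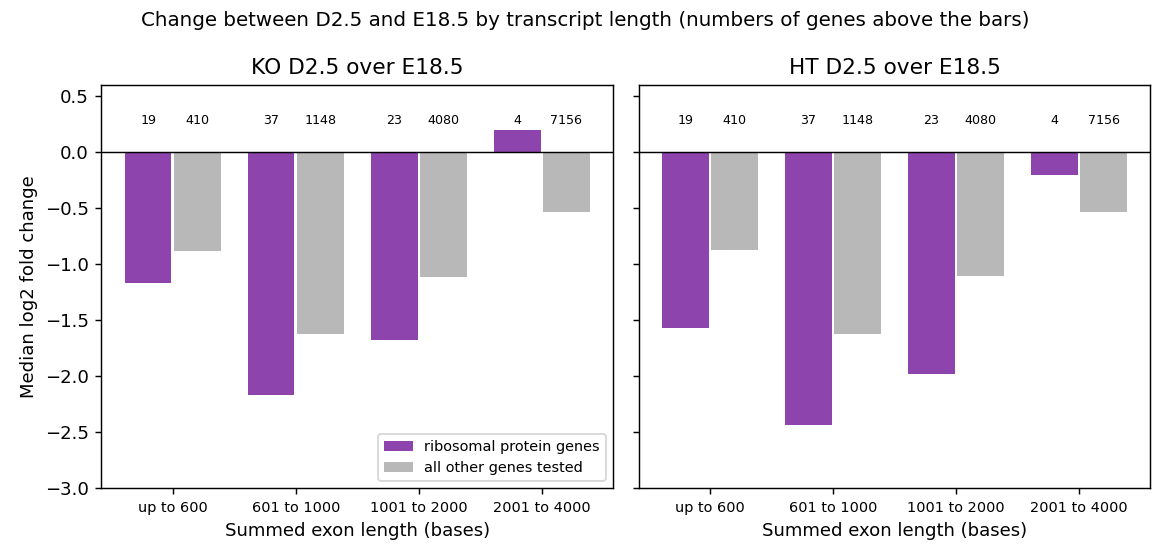
Median log2 fold change of D2.5 over E18.5 (vertical axis) for the members (purple) and all other genes tested (grey) by summed exon length in bases (horizontal axis), with numbers of genes above the bars, in KO (left) and HT (right). Members have lower medians than other genes in each bin up to 2000 bases, and higher ones above 2000 and up to 4000 bases, where there are 4.

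The 16 members with a mean log2 CPM above 8 had a median log2 fold change of -2.58 in KO and -2.91 in HT at D2.5, against 0.82 and 0.85 for other genes of that abundance. The 27 members above 6 and up to 8 had -2.35 in KO and -2.58 in HT, and the 21 above 4 and up to 6 had -1.44 and -1.75. The 18 members with a mean log2 CPM above 2 and up to 4 had -0.27 in KO and -0.99 in HT, against -0.82 and -0.76 for other genes. The 4 members up to 2 had -3.51 in KO and -1.66 in HT, against -1.92 and -1.85 for other genes. Scaling moved the whole distribution, with a median of all genes of -1.03 in KO and -1.004 in HT when no scaling factors were used, while the members' median minus that of all genes was then -1.40 in KO and -1.502 in HT. Fewer genes were detected at D2.5, as given above, and this was not separated from age either. Markers of cell types moved over this step as well, where 34.2% of all genes were lower and 21.1% higher in KO. In HT these shares were 33.4% and 21.4%. Of 12 stromal markers, 6 were higher and 1 lower in KO at D2.5 and 3 higher and 1 lower in HT, with summed levels of 278 to 735 CPM at D2.5 against 269 to 304 CPM at E18.5 in KO and 205 to 319 against 242 to 316 CPM in HT. Of 12 Sertoli markers, 5 were higher and 1 lower in KO and 2 higher and 1 lower in HT, with 114 to 298 against 77.2 to 103 CPM in KO and 134 to 145 against 83.8 to 108 CPM in HT. Of 12 germ cell markers, 3 were higher and 6 lower in KO and 2 higher and 5 lower in HT, with 4641 to 6114 against 4546 to 5454 CPM in KO and 5340 to 5789 against 4858 to 5617 CPM in HT. Among 10 endothelial markers 2 were lower in KO and 3 in HT, and among 9 tested Leydig markers 4 were lower in each genotype and 1 higher in HT. Of 8 tested macrophage and blood markers, 1 was higher and 2 lower in KO and 2 higher and 3 lower in HT. The summed list had 52.2 to 89.9 CPM at D2.5 against 86.7 to 112.8 CPM at E18.5 in KO, and 70.8 to 83.7 against 48.0 to 52.3 CPM in HT. The part of these markers in the postnatal fall was not tested.

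Other parts of the translation machinery were followed in lists drawn up with earlier results of these data known. Their counts at D2.5 are to be read against the 34.2% of all genes lower and 21.1% higher in KO. In HT these shares were 33.4% and 21.4%. Differences between lists were not tested. Of 78 mitochondrial ribosomal protein genes, 40 were lower and 4 higher in KO and 42 lower and 2 higher in HT at D2.5, with medians of -1.004 in KO and -1.14 in HT. Mrps18a, of the small mitochondrial subunit, had -4.36 ± 0.36 in KO and -3.96 ± 0.35 in HT (SE). Of 22 other TOP mRNA genes, 15 were lower and 5 higher in KO and 14 lower and 5 higher in HT, and the elongation factor Eef2 fell by 2.98 ± 0.16 in KO and 2.61 ± 0.15 in HT on the log2 scale (SE). Of 36 elongation and initiation factors, some of them also in the TOP list, 21 were lower and 12 higher in KO and 20 lower and 12 higher in HT. The 64 ribosome assembly factors went both ways, with 18 lower and 25 higher in KO and 18 lower and 24 higher in HT, among them Rrp12 at -2.50 in KO and -2.84 in HT and Nop58 at 4.11 in KO and 3.77 in HT. Among 24 regulators of ribosomal protein synthesis 6 were lower and 10 higher in KO and 6 lower and 9 higher in HT, with Mtor at -1.74 in KO and -1.99 in HT and the S6 kinase gene Rps6kb1 at 2.33 in KO and 2.52 in HT. Between E16.5 and E18.5 the shares of all genes were 2.9% lower and 1.65% higher in KO, and 8.39% lower and 4.81% higher in HT. Over that step 6 of 64 assembly factors were lower in KO and 24 in HT and none higher, with medians of -0.56 in KO and -0.77 in HT. Of 78 mitochondrial ribosomal protein genes 1 was lower in KO and 4 in HT and none higher, with medians of -0.39 and -0.55. Among the other TOP mRNA genes 4 of 22 were lower in KO and 11 in HT, with 1 higher in HT, and among the elongation and initiation factors 5 of 36 were lower in KO and 17 in HT.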

How the data were processed

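Per the labels' protocols, total RNA of sorted cells was isolated with a PicoPure kit and made into libraries with NuGEN Ovation kits. STAR, Bowtie, featureCounts, edgeR and the mm9 build are named in the submitters' processing notes, with no version or role. The deposited values are raw read counts per gene and repeat name, 1 table per age; the treatment of reads that match several places is not given in the sources used here. Repeat family tables were not used.

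Members and gene lists were chosen with earlier results of these data known. Under R 4.3.3, edgeR 4.0.16 kept the gene rows that filterByExpr passed (count 10, total 15), scaled by TMM, and ran its two-sided quasi-likelihood test, with Benjamini-Hochberg adjustment over all genes and 0.05 as the threshold. E16.5, E18.5 (6 libraries each) and D2.5 (9 libraries) were fitted alone for genotype contrasts. One fit of the 18 KO and HT libraries gave the changes with age and their differences. SEs are log2 fold changes over the root of the F statistic. The script was tested on simulated data. Named genes were, per comparison, the members past the threshold (the 6 largest in each direction if over 12), all paralogues and parents, Rplp0, Rplp1, Rplp2, Rpsa, Rps6, Rpl5, Rpl11, Rps19, Rpl38, Rps19bp1, and the 5 highest and 5 lowest per kb. Others named were chosen after their values were seen, and some members that the rule names are not reported here.

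CPM are counts scaled to 1000000 gene counts, with no TMM factor. A count of 3 is the floor used. Exon lengths and 31-base words came from GENCODE vM21 transcripts and promoters from RefSeq (GRCm38.p6), matched by symbol, with no coordinate carried between builds. Alternatives were other scaling (RLE, upper quartile, none, TMM without the members or with repeats), no or a stricter filter (minimum 50), DESeq2 1.42.0, limma-voom (limma 3.58.1), removal of a lowess trend (span 0.3) on length, a replicate block, and each replicate left out. Replicate numbers were not taken as pairs, because no comparison had a correlation over 0.1 in all 3 pairs. Between KO and HT at E16.5 the correlations were 0.52, -0.04 and 0.70 for replicates 1, 2 and 3. Replicates differed beyond counting noise in every group. Counting limits the precision of the lowest members.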

Additional observations from a re-analysis of the deposited data

How the results depend on the processing

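The count of called members was 0 between KO and HT at E16.5 under each alternative run. At E18.5 leaving out 1 library gave 0 to 1 calls (Rpl3), and at D2.5 the absence of a filter gave 1 (Rpl15). In KO between E18.5 and E16.5, leaving out 1 library gave 0 to 18 calls, no scaling factors 5, TMM factors over genes and repeats 18, DESeq2 19, limma-voom 25 and the removal of the length trend 32. In HT the same step gave 8 to 49 calls with 1 library left out, 25 with RLE factors, 18 with upper-quartile factors, 13 with no scaling factors and 66 with the length trend removed. Between D2.5 and E18.5, leaving out 1 library of the genotype gave 51 to 54 lower members in KO and 53 to 59 in HT. With the length trend removed, 14 of 58 called members in KO and 16 of 63 in HT had the opposite sign in that step. Among the genes named by the rule these were in KO Rpl10l (0.88), Rps19 (0.77), Rpl38 (1.17) and Rpl4 (0.22), and in HT Rpl10l (0.23), Rps19 (0.43), Rpl38 (0.10) and Rpl4 (0.24). The cause of these shifts was not tested. With all counts, repeats included, as the denominator, the mean share was 1.08% in KO and 1.196% in HT at E16.5, 0.672% in KO and 0.769% in HT at E18.5, and 0.116% in KO, 0.0995% in HT and 0.101% in WT at D2.5. Of the values of single named genes under the settings other than leaving out a library, 3662 stayed on their side of the threshold, 71 passed it anew, 37 lost it and 8 turned. With 1 library left out, 2598 stayed, 15 passed anew and 84 lost it. The biological coefficient of variation was 37.3% in the E16.5 fit, 17.9% in that of E18.5 and 55.4% in that of D2.5.

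Replicate numbers were not taken as pairs. Used as a block between KO and HT at E16.5, they gave 3 members at an unadjusted p under 0.05 in edgeR, against 0 without the block. As a replicate block they gave 0 calls in each genotype comparison and in each test of the KO effect between ages, 10 lower members in KO and 34 in HT between E18.5 and E16.5, and 57 lower in KO and 60 in HT, each with 2 higher, between D2.5 and E18.5.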
